A study of Rattus norvegicus with 39 samples.

Results

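Methionine tRNA genes were described in small RNA sequencing counts of rat sperm. The members were the rows of the deposited table of genomic tRNA genes whose name gives methionine as the amino acid, and 13 of the 402 rows met this rule. All 13 carry the anticodon CAT, the only methionine anticodon in the table. Several rows held identical counts in every library, so the 13 rows formed 6 distinct count patterns, of 237 distinct patterns with at least 1 count in the table. Rows of 1 pattern could not be told apart and were counted once.

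Each library held total RNA from the cauda epididymal sperm of 1 adult wild-type Fischer male rat, aged 11 to 12 weeks. Males received water or EGME (ethylene glycol monomethyl ether, an industrial solvent known as a toxicant of developing sperm cells) by oral gavage for 5 days, and sperm were collected 5 weeks later. The groups are called EGME0 (water), EGME50, EGME60 and EGME75 for their daily doses of 0, 50, 60 and 75 mg/kg/d, with n = 10, 10, 9 and 10 males. Replicate numbers are those of the labels, so p-values measure the spread between males. The 39 libraries were run on 13 chips of 3 libraries.

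Methionine is carried by 2 kinds of tRNA that share this anticodon. The initiator tRNA brings the first amino acid of every new protein to the ribosome, and the elongator tRNA serves methionine codons inside the message. Mature sperm translate little, and most of their small RNA counts commonly come from fragments of tRNAs, part of which they take up from vesicles of the epididymis. The row names do not say which methionine gene is an initiator or an elongator, and a count here may come from a fragment or from a whole tRNA.

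The genes lie on 5 chromosomes by their names: 9 on chromosome 17 and 1 each on chromosomes 2, 7, 11 and 19. The RefSeq annotation of the GRCr8 assembly also lists 13 methionine tRNA genes of this anticodon, with the same number on each chromosome. The table is named for the Rnor_6.0 assembly, so no positions were taken from RefSeq.

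With identical rows counted once, the single gene trna3895 on chromosome 17 held most of the methionine counts. It averaged 182455 counts per library and 75.0% of the methionine counts, between 59.96% and 83.7% in single libraries. A second pattern was shared by 7 rows: trna1583, trna1647, trna3836, trna3845 and trna3856 on chromosome 17, trna1954 on chromosome 11 and trna7573 on chromosome 2. It averaged 55930 counts, or 23.1% of the methionine counts (14.8% to 37.4%), and is called the 7-gene pattern below. The gene trna3895 exceeded the 7-gene pattern, counted once, in 39 of 39 libraries. Each of the 7 rows holds these same counts, so with all rows kept they together exceed trna3895. The shares and order given here therefore rest on collapsing identical rows.

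The other 4 patterns were scarce. The pair trna2927 (chromosome 19) and trna7114 (chromosome 7) shared 1 pattern with a mean of 1464 counts and 0.676% of methionine counts. On chromosome 17, trna3806 averaged 1409 counts (0.630%) and trna1682 averaged 1122 counts (0.497%). The gene trna3806 was above trna1682 in 39 of 39 libraries, while the pair was above trna3806 in only 20 of 39. The last gene, trna3869 on chromosome 17, had 194 counts over all libraries, at most 15 in any 1 of them. It was at 0 in 9 libraries, of which 1 was EGME0, 3 were EGME60 and 5 were EGME75. A count of 0 allows a share of up to 0.00576% of the tRNA counts in the shallowest of these libraries, for counting error only. This gene did not pass the filter on low counts and was not tested. The 5 other patterns all passed it in a fit of 190 patterns.

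Distinct tRNA counts per library ran from 52085 (EGME75 replicate 24) to 5545433, with a median of 2707753, and the second shallowest library (EGME0 replicate 33) held 183132. Group means, in order of dose, were 2911228, 3095588, 3057860 and 1860439. In bulk sperm samples, fewer cells of a type and less RNA per cell cannot be told apart, and all values are relative to the other RNAs in the library.

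The first comparison asked what share of the tRNA counts was methionine tRNA at each dose. The share rose from 6.83% ± 1.96 (SD, n = 10) at EGME0 to 9.97% ± 3.22 (n = 9) at EGME60 and 14.2% ± 4.45 (n = 10) at EGME75, and was 7.67% ± 1.85 (n = 10) at EGME50. In EGME0 the lowest, median and highest males had 4.23%, 6.66% and 10.4%. At EGME50 these were 5.41%, 7.36% and 11.8%. Of the 10 EGME50 males, 8 lay above the control median and 1 above the highest control, so the 2 groups overlapped widely.

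At EGME60 the lowest, median and highest shares were 6.87%, 8.33% and 15.2%, and at EGME75 they were 8.80%, 13.5% and 23.9%. All 9 EGME60 males and all 10 EGME75 males lay above the control median, and 3 and 8 of them lay above the highest control. The groups therefore overlapped at both doses, with 2 EGME75 males inside the control range. The highest male of all was EGME75 replicate 23, from a library of 636854 tRNA counts.

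The difference from control was 7.38 percentage points at EGME75 (two-sided permutation test, p = 8e-05, adjusted p = 4e-04 over 5 comparisons). At EGME60 it was 3.15 points (exact permutation p = 0.0181, adjusted p = 0.0451), and at EGME50 it was 0.840 points (permutation p = 0.339, adjusted p = 0.339). EGME75 exceeded EGME60 by 4.23 points (exact permutation p = 0.0276, adjusted p = 0.0460). EGME60 exceeded EGME50 by 2.31 points, which did not pass the threshold (exact permutation p = 0.0702, adjusted p = 0.0878). In a fit that blocks by chip, it was 3.71 points and passed (adjusted permutation p = 0.0296). The EGME75 difference passed after leaving out any single library, and as a share of the 4 tables together it was 1.09 points and also passed. The total of the 4 tables kept identical rows, while the methionine counts had them collapsed. As a share of the 4 tables the EGME60 difference was 0.271 points and did not pass (adjusted exact permutation p = 0.479). The EGME60 call was also lost in 7 of 19 omissions of 1 library (EGME0 replicates 1, 18 and 34, and EGME60 replicates 6, 22, 29 and 38, with differences of 2.50 to 3.14 points). The EGME75 against EGME60 call was lost in 14 of 19.

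**Figure D1:**
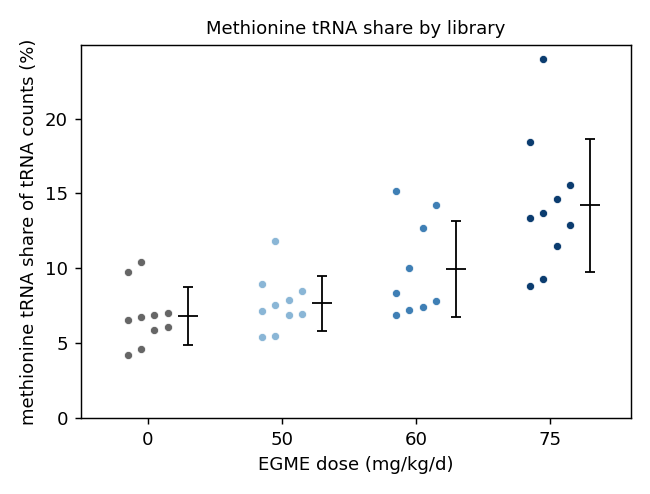
Methionine share of the tRNA counts (percent, y axis) in each of 39 libraries by EGME dose (mg/kg/d, x axis). Points are males, and the bar beside them is the mean ± SD, which goes from 6.83% at 0 to 14.2% at 75 mg/kg/d, with 8 of the 10 males at 75 above the highest control.

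Chips that carried both groups gave the same direction. EGME75 was above EGME0 on 6 of 6 such chips, by 4.57 to 17.9 points (median 5.38), and EGME60 was above EGME0 on 5 of 5, by 0.569 to 3.68 points (median 3.02). EGME50 was above EGME0 on 4 of 6.

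Among the 49 anticodons, methionine had rank 3 by mean share at EGME0 and rank 2 at each EGME dose. The serine anticodon GCT was first in every group, and its share was 31.3% at EGME0 and 14.8% at EGME75. Because shares add up to the whole, the size of that anticodon enters the methionine share. With the serine GCT counts removed from the total, the EGME75 difference in the methionine share still passed. The EGME60 difference was then 2.45 points with an adjusted exact permutation p = 0.107.

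The second comparison used the level of summed methionine tRNA scaled over the whole table by trimmed mean of M-values (TMM), in CPM (counts per 1000000). Mean levels were 76236 ± 18699 CPM (SD, n = 10) in controls, 83866 ± 20697 (n = 10) at EGME50, 100551 ± 46992 (n = 9) at EGME60 and 121997 ± 54592 (n = 10) at EGME75. The range was 43356 to 104764 CPM at EGME0 and 67237 to 265658 CPM at EGME75, with medians of 81783 and 113145. The highest EGME75 male was again replicate 23, and without it the highest was 131538 CPM.

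The summed level was higher at EGME75 by 0.68 on the log2 scale (SE 0.21, edgeR quasi-likelihood adjusted p = 0.00545). It was 0.40 at EGME60 (SE 0.22, adjusted p = 0.171), where 31.9% of anticodons were called, and 0.14 at EGME50 (SE 0.21, adjusted p = 0.904), where 0.0% were, and neither passed in edgeR. The slope on dose was 0.61 over 75 mg/kg/d (SE 0.20, adjusted p = 0.0114). Of the 47 anticodons tested, 53.2% were called at EGME75, with 23.4% called higher and 29.8% lower, and 48.9% were called for the slope (21.3% higher, 27.7% lower). Methionine had the eighth highest log2 fold change of the 47 at EGME75. A call was therefore common in this comparison. Between neighbouring doses the summed level was not separated: EGME60 against EGME50 gave 0.26 (edgeR adjusted p = 0.456), where 10.6% of anticodons were called (2.13% higher, 8.51% lower), and EGME75 against EGME60 gave 0.28 (adjusted p = 0.345), where 34% were called (12.8% higher, 21.3% lower). Without EGME75 replicate 23 the methionine value was 0.48 (edgeR adjusted p = 0.0335), and without EGME60 replicate 6 the EGME60 value was 0.19.

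The members did not all show the same change. The gene trna3895 and the 7-gene pattern rose at EGME75, and only the 7-gene pattern rose at EGME60, by an edgeR adjusted p under 0.05. That is 2 of 5 patterns higher and 0 lower at EGME75, beside 64.7% of all 190 patterns called (36.8% higher, 27.9% lower). It is 1 of 5 higher at EGME60, beside 21.6% of all patterns called (18.9% higher, 2.63% lower). At EGME50 none of the 5 was called in edgeR or in DESeq2, 0 had an unadjusted edgeR p under 0.05, and 0.0% of all patterns were called. The slope on dose was higher for 2 of 5, beside 61.1% of all patterns called (37.9% higher). The median log2 fold change of the 5 at EGME75 was 0.01, against 0.16 over all 190 patterns.

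For the 7-gene pattern, the lowest, median and highest levels were 8465, 14175 and 19396 CPM at EGME0, and 11073, 16227 and 28769 CPM at EGME50. At EGME60 they were 14163, 23248 and 48723 CPM, and at EGME75 they were 18292, 29854 and 69500 CPM. Only the lowest EGME75 male, replicate 39, lay within the control range, while EGME60 overlapped it further.

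The 7-gene pattern was higher by 1.24 on the log2 scale at EGME75 (SE 0.23, edgeR adjusted p = 1.27e-05). It was higher by 0.90 at EGME60 (SE 0.23, edgeR adjusted p = 0.00349), and at EGME50 the value was 0.37 (SE 0.22, adjusted p = 0.764). The slope was 1.17 over 75 mg/kg/d (edgeR adjusted p = 4.13e-05). Neighbouring doses were not separated: EGME60 against EGME50 gave 0.53 (edgeR adjusted p = 0.133) and EGME75 against EGME60 gave 0.33 (adjusted p = 0.310), where 0.0% and 32.1% of all patterns were called. Both calls against control held without any single library, with values of 0.997 to 1.31 at EGME75 and 0.579 to 0.984 at EGME60, the lowest without EGME60 replicate 38 (edgeR adjusted p = 0.0337).

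For trna3895 the lowest, median and highest levels were 26931, 59983 and 78271 CPM at EGME0, and 23813, 61204 and 104426 CPM at EGME50. At EGME60 they were 37402, 72754 and 188946 CPM, and at EGME75 they were 39563, 88272 and 191532 CPM. The groups overlapped at every dose, and 1 male each of EGME60 (replicate 6) and EGME75 (replicate 23) had the highest level of their groups.

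The gene trna3895 was higher by 0.78 on the log2 scale at EGME75 (SE 0.26, edgeR adjusted p = 0.00780). Its values were 0.48 at EGME60 (SE 0.26, edgeR adjusted p = 0.162) and 0.22 at EGME50 (SE 0.26, adjusted p = 0.936), and its slope was 0.71 (adjusted p = 0.0115). Without EGME75 replicate 7 the EGME75 value was 0.53 with an edgeR adjusted p = 0.0536. With all rows kept as deposited, so that identical rows weigh on the scaling, it was 0.43 with an edgeR adjusted p = 0.111. The slope call was lost without any 1 of 6 libraries (EGME50 replicate 36, EGME60 replicate 38 and EGME75 replicates 7, 24, 31 and 40).

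**Figure D2:**
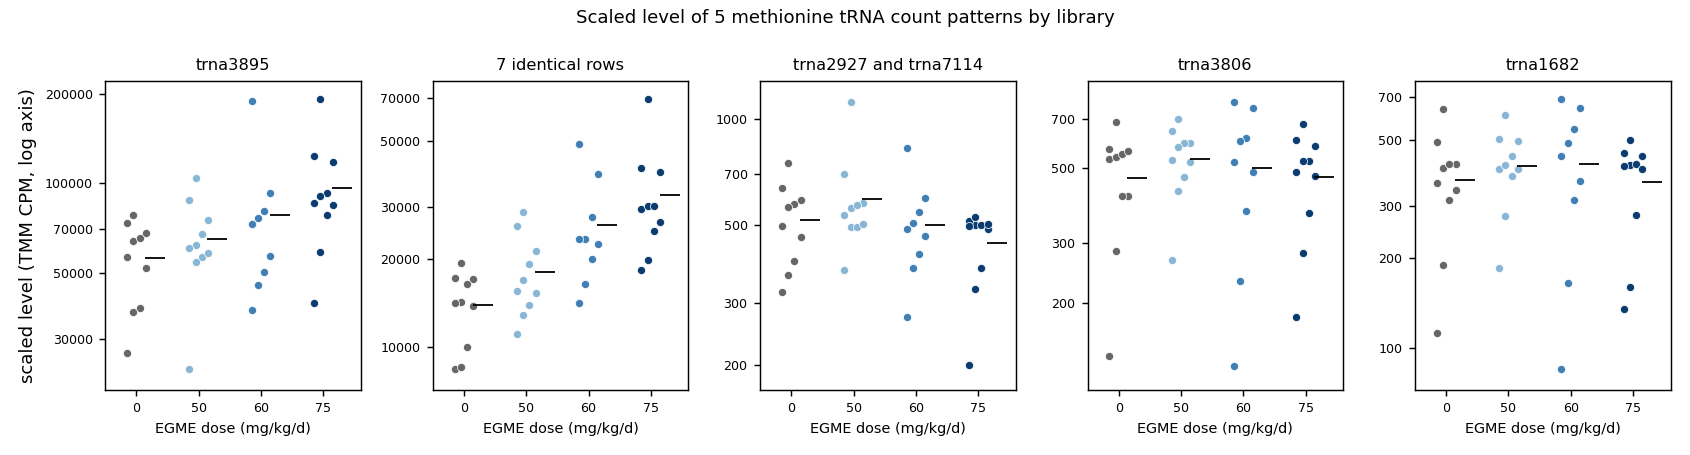
Scaled level of 5 methionine tRNA count patterns (TMM CPM, log y axis with its own range in each panel) by EGME dose (mg/kg/d). Points are males and bars are group means, and the means of trna3895 and the 7-gene pattern (7 identical rows) step upward with dose while those of the 3 scarce patterns do not.

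The 3 scarce patterns were not called at any dose with identical rows collapsed. The pair trna2927 and trna7114 averaged 516 ± 133 CPM (SD, n = 10) in controls and 593 ± 202, 499.7 ± 155 (n = 9) and 444 ± 107 CPM with rising dose. Its log2 fold change at EGME75 was -0.20 (SE 0.19, edgeR adjusted p = 0.356), but with all rows kept it was -0.56 and called lower (edgeR adjusted p = 0.0234). One EGME50 male, replicate 35, had 1116 CPM where the other 9 had 373 to 699.

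For trna3806 the means were 469 ± 159, 532 ± 121, 499.7 ± 221 and 469.97 ± 152 CPM from EGME0 to EGME75, with a log2 fold change of 0.01 at EGME75 (SE 0.25, edgeR adjusted p = 0.973). For trna1682 they were 368 ± 147, 410.01 ± 117, 415 ± 204 and 361 ± 125 CPM, with a log2 fold change of -0.01 (SE 0.28, edgeR adjusted p = 0.975). Both genes were lowest within their groups in the same males, EGME0 replicate 33, EGME50 replicate 11, EGME60 replicate 6 and EGME75 replicate 23. In each of these groups that male also had the highest methionine share.

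Scaling moved these values together. With library totals alone the median of all 190 patterns at EGME75 went from 0.16 to 0.39, and with all rows kept it was -0.08. With library totals alone the pair (0.05) and trna1682 (0.29) changed sign, and trna3806 was at 0.31. Relative to the median pattern, trna3895 was 0.62 above at EGME75 (0.50 to 0.69 over 7 other settings and the reported one), and the 7-gene pattern was 1.08 above (0.93 to 1.14). The pair was 0.36 below, at -0.36 (-0.47 to -0.30).

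**Figure D3:**
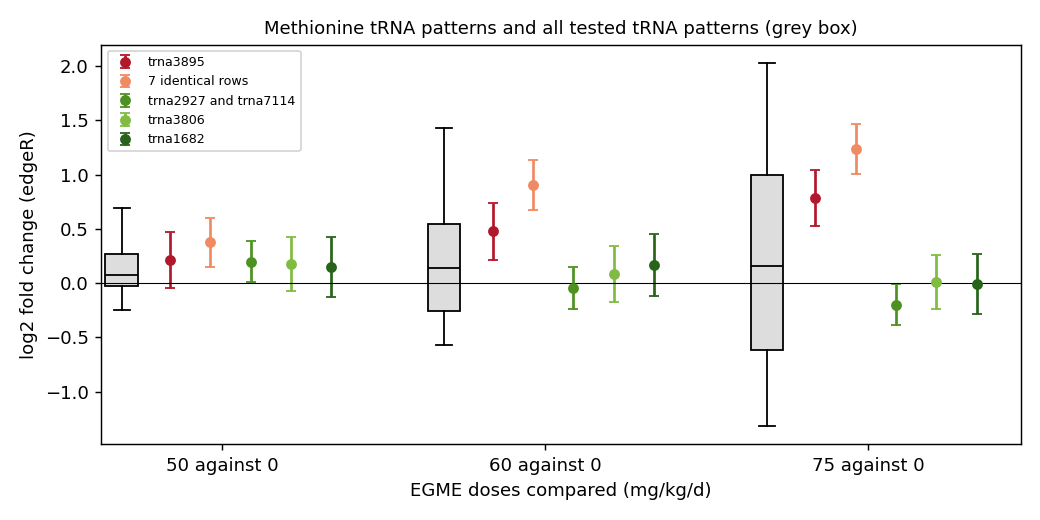
Log2 fold change against EGME0 (y axis) of each methionine pattern and of all tested tRNA patterns at the 3 doses (x axis, mg/kg/d). Points are edgeR estimates ± SE, and the grey box gives the quartiles of 190 patterns with whiskers at the 5th and 95th percentiles. The 7-gene pattern is the highest member at each dose, at 0.37, 0.90 and 1.24.

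Shares within the methionine counts do not depend on the scaling. The 7-gene pattern made up 19.98% ± 4.24 (SD, n = 10) of methionine counts in controls, 21.8% ± 3.74 (n = 10) with 50 mg/kg/d, 25.8% ± 5.55 (n = 9) with 60 and 25.3% ± 2.31 (n = 10) with 75. All 10 EGME75 males lay above the control median, and 1 lay above the highest control, so the groups overlapped. The gain was 5.37 points at EGME75 (permutation p = 0.00256, adjusted p = 0.0384 over 15 tests) and 5.78 points at EGME60 (exact permutation p = 0.0177, adjusted p = 0.0759). Without any 1 library the EGME75 gain was 4.75 to 6.45 points, but its adjusted permutation p rose to as much as 0.0830 and missed the threshold in 15 of 20 omissions.

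The share of trna3895 within methionine was 77.9% at EGME0 and 73.5% at EGME75, a difference of -4.43 points that did not pass (adjusted permutation p = 0.0759), although 10 of 10 EGME75 males were below the control median. The ratio of trna3895 to the 7-gene pattern averaged 4.08, 3.61, 2.96 and 2.93 from EGME0 to EGME75. The pair trna2927 and trna7114 had 0.819% of methionine counts in controls and 0.413% in EGME75 males (adjusted permutation p = 0.0759). The gene trna3806 had 0.737% and 0.443%, and trna1682 had 0.576% and 0.343% (adjusted permutation p = 0.115 for both). None of these differences passed the threshold. With all rows kept, so that the 7-gene and pair counts entered once per row, all 5 patterns changed at EGME75 and 2 at EGME60.

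Across the 39 libraries, with each group's mean removed, the members formed 2 sets. Pearson's r of log2 CPM was 0.83 between trna3895 and the 7-gene pattern, and 0.98 between trna3806 and trna1682. The pair trna2927 and trna7114 had r = 0.54 with trna3806 and 0.53 with trna1682. Between the 2 abundant and the 3 scarce patterns r was negative, from -0.68 to -0.57. All points share 1 library's depth and scaling. How reads matching genes of more than 1 pattern were counted was also not given, so these values are a description. Pearson's r with group means removed was also taken between anticodons. Those most like summed methionine were leucine CAG (0.81), leucine AAG (0.79), leucine TAG (0.78), glutamate TTC (0.50) and the selenocysteine anticodon TCA (0.47).

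Other tRNAs often described as abundant fragments in sperm were taken from a list of 9 anticodons, all of them tested. At EGME75, 4 of 9 were higher and 0 lower, beside 23.4% of all anticodons higher and 29.8% lower. These were lysine CTT (1.79, edgeR adjusted p = 2.39e-06), glutamate CTC (1.77, adjusted p = 1.22e-05), valine AAC (1.03, adjusted p = 4.86e-07) and histidine GTG (0.83, adjusted p = 1.12e-04), all as log2 fold changes. Glycine GCC, the source of a much studied sperm fragment, had -0.02. Its mean share of the tRNA counts, by contrast, was 7.15% ± 1.31 (SD, n = 10) at EGME0 and 9.61% ± 1.30 (n = 10) at EGME75, with no test. At EGME60, 4 of 9 were higher and 0 lower, beside 14.9% and 17% of all anticodons. At EGME50 none of the 9 was called in edgeR, and 0.0% of all anticodons were called. The lowest edgeR adjusted p values of the 9 were 0.191 (glutamate CTC) and 0.828 (lysine CTT).

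A further table, of RNAcentral entries, also names methionine tRNA. It holds 3 such entries of 1048 tRNA entries (413 with distinct counts), and this comparison was added after the data had been seen. There the methionine share of tRNA counts went the other way. Controls had 0.689% ± 0.373 (SD, n = 10) and EGME50 males 0.585% ± 0.211 (n = 10), while EGME60 males had 0.251% ± 0.127 (n = 9) and EGME75 males 0.263% ± 0.0695 (n = 10). The lowest, median and highest were 0.174%, 0.708% and 1.45% at EGME0 and 0.194%, 0.242% and 0.387% at EGME75. Nearly all of this share came from 1 of the 3 entries, with means of 0.676% at EGME0 and 0.258% at EGME75.

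All 9 EGME60 and all 10 EGME75 males were below the control median, although the groups overlapped because of low controls. The share fell by 0.438 points at EGME60 (exact permutation p = 0.00255, adjusted p = 0.00383 over 3 comparisons) and by 0.425 points at EGME75 (permutation p = 0.00163, adjusted p = 0.00383). At EGME50 the difference was -0.104 points (permutation adjusted p = 0.466). The higher methionine share at these doses thus holds for the genomic table and not for the methionine entries of RNAcentral. Which reads each table assigned to methionine was not analysed here.

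**Figure D4:**
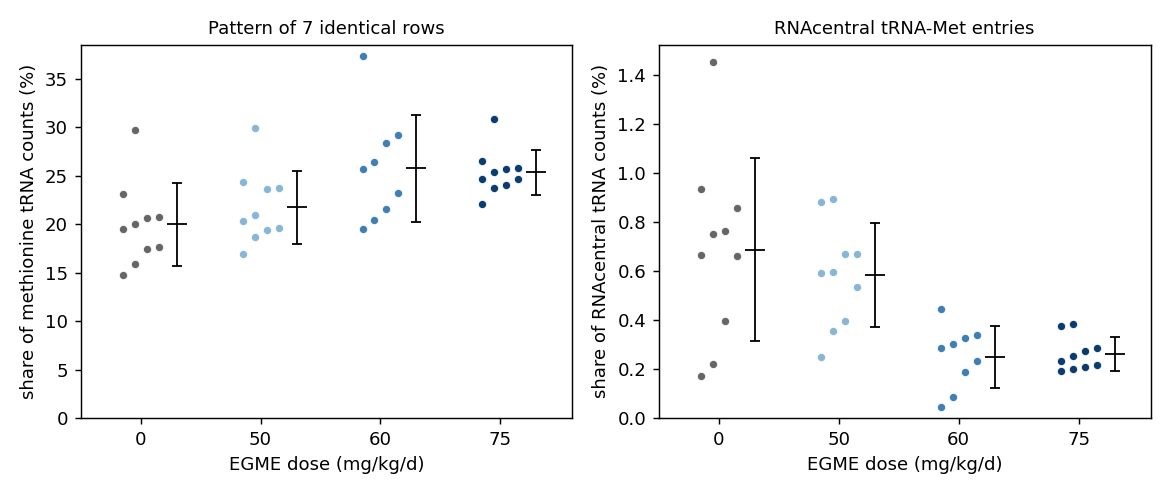
Left, share of the 7-gene pattern (7 identical rows) in the methionine tRNA counts, and right, share of the tRNA-Met entries in the RNAcentral tRNA counts (percent, y axes) by EGME dose (mg/kg/d, x axes). Points are males and bars beside them are means ± SD, going from 19.98% to 25.3% on the left and from 0.689% to 0.263% on the right between 0 and 75 mg/kg/d.

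Marker miRNA shares are given by group, with no test. Germ cell miRNAs (6 of 6 in the table) took up 26.3%, 20.1%, 17.1% and 13.9% of all miRNA reads on average as dose went up, with ranges of 19.8% to 33.1%, 11.1% to 25.5%, 10.9% to 28.1% and 6.47% to 22.1%. Blood cell miRNAs (6 of 7) averaged 0.145%, 0.445%, 0.840% and 1.26% in the same order, with ranges of 0.0% to 0.343%, 0.119% to 1.24%, 0.0216% to 2.17% and 0.248% to 4.82%. Epithelial miRNAs (5 of 5) averaged 0.861%, 1.67%, 1.75% and 2.92%, with ranges of 0.625% to 1.29%, 0.612% to 3.33%, 0.251% to 3.01% and 1.81% to 4.77%. Muscle miRNAs (4 of 4) averaged 1.77%, 2.55%, 4.99% and 4.43%, with ranges of 0.954% to 3.27%, 0.932% to 4.58%, 1.31% to 11.7% and 1.12% to 9.80%.

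Of the markers, miR-144-3p was at 0 in all libraries of EGME0, EGME50 and EGME75, miR-1-3p in EGME50, EGME60 and EGME75, and miR-449c-5p in EGME0. EGME75 replicate 23, with the highest methionine share, had the lowest blood cell and muscle values of its group, at 0.248% and 1.12%. EGME60 replicate 6, the highest of its group, had the lowest epithelial and muscle values there, at 0.251% and 1.31%. The miRNA totals behind these shares ran from 139 to 38208 counts per library. They were 807 in EGME75 replicate 23 and 1990 in EGME60 replicate 6, so the low values of these males rest on few counts. The part of other cells in the methionine result was not tested.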

How the data were processed

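Total RNA of 39 sperm samples, 1 male each, was sequenced with the Ion total RNA-seq kit v2 after mirVana extraction and DNase, per the labels' protocols. The authors deposited raw counts of sense reads for genomic tRNA genes, miRNAs, noncoding transcripts and RNAcentral entries. FastQC, Bowtie and DESeq2 are named in the submitters' processing notes, and how reads matching more than 1 gene were counted was not given in the sources used here. All columns matched a sample. Identical rows were collapsed, and 7 rows with no counts were left out. edgeR 4.0.16 (limma 3.58.1, R 4.3.3) was run on all 39 libraries with TMM factors (0.637 to 1.49 for patterns, 0.713 to 1.45 for anticodons), filterByExpr by group, robust quasi-likelihood tests and Benjamini-Hochberg adjustment over the whole table per comparison, at 0.05. The filter kept 190 of 237 patterns and 47 of 49 anticodons. Shares were compared by two-sided permutation tests of means (100000 resamples, exact where a group had 9 males) with Python 3.11.15, numpy 2.4.6, scipy 1.17.1, pandas 2.3.3 and matplotlib 3.10.9. Correlations between patterns used log2 of CPM plus 1, and those between anticodons used log2 CPM with a prior count of 2. DESeq2 1.42.0, other scaling, no filter, chip as a block, depth as a covariate and single omissions were alternatives. The edgeR fit of patterns was also run on simulated data for EGME75 against EGME0. Of 188 simulated patterns, 148 were unchanged and 1.35% of these were called, as were 100% of the changed ones. All were drawn with the same spread, and most were unchanged, while 64.7% of the real patterns were called. The simulation therefore does not measure the error of the fit in these data. Patterns averaging 10 or more counts were named, at most 10. The members and lists were chosen with earlier results of these data known. No tRNA sequences were used here.

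The sperm list held GlyGCC, GlyCCC, GluCTC, GluTTC, ValCAC, ValAAC, HisGTG, LysCTT and AspGTC. Germ cell miRNAs were miR-449a-5p, miR-449c-5p and the 5p and 3p arms of miR-34c and miR-34b, and blood cell miRNAs were miR-150-5p, miR-223-3p, miR-142-3p, miR-142-5p, miR-486-5p, miR-451-5p and miR-144-3p. Epithelial miRNAs were miR-200a-3p, miR-200b-3p, miR-200c-3p, miR-141-3p and miR-429, and muscle miRNAs were miR-143-3p, miR-145-5p, miR-1-3p and miR-133a-3p.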

Additional observations from a re-analysis of the deposited data

Results flagged for a closer look

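In 10 of 48 group checks, 1 male stood apart from its group by Dixon's test at the 95% level. For independent checks of normally distributed values, chance gives this in about 1 group in 20. These checks reuse the same males and counts, so they are not independent and their number cannot be weighed against that rate. The summed methionine level was 210547 CPM in EGME60 replicate 6, where the others had 59761 to 133360 CPM, and 265658 CPM in EGME75 replicate 23, where the others had 67237 to 131538 CPM. The level of trna3895 was 188946 CPM in EGME60 replicate 6, against 37402 to 92600 CPM. The 7-gene pattern was at 69500 CPM in EGME75 replicate 23, against 18292 to 40503 CPM.

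EGME50 replicate 35 stood apart in 4 checks. Its trna3895 share of methionine counts was 64.3% (others 74.3% to 81.8%), its trna2927 and trna7114 pair was at 1116 CPM (373 to 699 CPM) and 3.01% of methionine counts (0.425% to 0.928%), and its trna3806 share was 1.56% (0.204% to 0.861%). EGME75 replicate 39 had a trna3895 share of 66.7% (others 73.1% to 76.8%) and a 7-gene share of 30.9% (22.1% to 26.6%).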

How the results depend on the processing

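No paired analysis was possible because the labels give no replicate number to more than 1 dose group. Dose groups did share chips, and the fits with chip as a block are included here. Under the 7 other settings of the fit, the summed methionine level kept its call at EGME75 (0.61 to 1.06) and for the slope (0.54 to 0.93). At EGME60 it was 0.55 with all rows kept (edgeR adjusted p = 0.0329) and 0.55 with library totals alone (edgeR adjusted p = 0.0209), both past the threshold, and with library totals alone EGME75 against EGME60 also passed (0.51, adjusted p = 0.0406). With all rows kept, called patterns were 1 higher and 1 lower at EGME75 (the lower one the trna2927 and trna7114 pair, -0.56, edgeR adjusted p = 0.0234) and 1 higher for the slope, and shares within methionine changed for 2 patterns at EGME60 and 5 at EGME75.

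The methionine share kept its EGME75 call under all 6 alternatives. The EGME60 difference was 2.45 without serine GCT and 0.271 as a share of all 4 tables, neither past the threshold. EGME75 against EGME60 was 3.54 with all rows kept, 4.27 without serine GCT, 0.818 as a share of all 4 tables and, chosen after seeing the data, 2.85 without EGME75 replicates 23 and 24, none past it. EGME60 against EGME50 passed with chip as a block (3.71, adjusted permutation p = 0.0296). The causes were not tested.

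Leaving out 1 library gave share differences of 6.30 to 7.98 (EGME75), 2.50 to 3.55 (EGME60), 1.66 to 2.77 (EGME60 against EGME50, past the threshold without EGME50 replicate 11) and 3.15 to 4.88 (EGME75 against EGME60). It gave 1 to 2 patterns higher at EGME75 and for the slope, and 0 to 2 changed shares within methionine at EGME60 and at EGME75.

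Calls at EGME75, 36.8% higher and 27.9% lower over all patterns (70 and 53), were 87 and 38 with library totals alone, 101 and 101 with all rows kept and 65 and 67 with no filter. At EGME60, 36 and 5 became 34 and 26 with RLE factors, 34 and 19 with no filter, 64 and 43 with all rows kept and 42 and 15 with library totals alone. In the RNAcentral table the falls at EGME60 and EGME75 kept their calls under 3 other denominators or scales and all single omissions.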
